A study of Mus musculus with 6 samples.

Results

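The genes described here encode the transforming growth factor beta (TGF-beta), activin and bone morphogenetic protein (BMP) pathway in mouse heart tissue: ligands, proteins that hold TGF-beta latent, receptors, SMAD proteins, secreted binding proteins and one matrix protein induced by TGF-beta. The set holds 40 genes chosen by symbol and matched to NCBI gene numbers. Of these, 38 were listed among the 17441 genes with a value in at least 1 library, and 35 were among the 13120 genes expressed highly enough to be tested. Bmp10 and Grem1 were not listed for any library and were not analysed here.

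RNA of heart tissue below the ligature was sequenced in 6 libraries, 2 from each of 3 groups of 12-week-old male mice, 3 days after surgery. WT Sham hearts came from wild-type mice after the same operation without the ligature (sham), WT MI hearts from wild-type mice whose left anterior descending coronary artery was tied off, which causes myocardial infarction (MI), and Card9 KO MI hearts from Card9 knockout mice treated likewise. All mice were on a C57BL/6 background, the sources used here limit the knockout to no cell type, and there was no Card9 KO Sham group, so the genotype could be compared only after infarction. Card9 encodes an adapter protein of innate immune signaling, and the sequencing addressed how its loss alters gene expression in the infarcted heart. Nothing in the labels says that the 2 libraries of a group came from separate animals, so p-values measure the spread between these libraries, which may be partly technical.

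TGF-beta is secreted bound to its own propeptide and to latent TGF-beta binding proteins in the matrix, and integrins, thrombospondin and proteases release it. Ligands of the family join pairs of type I and type II serine/threonine kinase receptors, which phosphorylate SMAD proteins that enter the nucleus with SMAD4. In the infarcted heart the pathway is known for ending inflammation and for turning fibroblasts into matrix-producing myofibroblasts, and activins and BMPs have their own roles in injury and repair.

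The libraries labelled Card9 KO MI did not have less Card9 RNA. Card9 was at 0.99 and 1.03 FPKM (fragments per kilobase of transcript, scaled to library size) in the WT Sham libraries, 3.39 and 5.08 in those of WT MI, and 9.85 and 6.94 in those of Card9 KO MI. The libraries labelled Card9 KO MI were thus above both WT MI libraries, with an adjusted p of 0.112 (limma). Which part of the gene was deleted is not given in the sources used here. Every direction between the infarct groups below therefore rests on the label. The libraries held an estimated 3024000 to 4297000 fragments, and 3 fragments on a transcript of 2 kb correspond to 0.349 to 0.496 FPKM. The summed FPKM of 10 cardiomyocyte markers was 63439 and 64542 in the WT Sham libraries, 36259 and 37581 in those of WT MI, and 30136 and 34742 in those of Card9 KO MI, so all libraries held cardiomyocyte RNA. Across all genes tested, the median log2 difference was 0.19 between WT MI and WT Sham, 0.24 between Card9 KO MI and WT Sham, and 0.04 between Card9 KO MI and WT MI. The first shift was 0.0039 after upper-quartile scaling and -0.09 after quantile normalization, and the share of calls that were higher in WT MI than WT Sham went from 74.7% to 54.7% and 47.3%.

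Infarction was accompanied by higher RNA of most ligands and of the TGF-beta receptors. Of the 35 genes tested, 17 were higher in WT MI than WT Sham (48.6%, against 27.7% of all genes tested) and 2 were lower (5.71%, against 9.39%). Their median log2 difference was 0.39. The set was chosen with earlier results of these data known, so its shares beside those of all genes are no separate test. Between the infarct groups, 4 genes were higher in Card9 KO MI than in WT MI, namely Tgfb3, Fstl1, Ltbp2 and Ltbp4 (11.4%, against 0.816% of all genes tested). None was lower (limma), against 0.587% of all genes, while 2 genes, Tgfbr3 and Inhbb, were lower at an unadjusted p below 0.05 and the fold and probability screen used in the study passed 0. At that unadjusted threshold 7 genes were higher, and the share of all genes is not given here. The median was 0.15. In mm9 these 4 genes lie at chr12:87397694-87419991 (Tgfb3, minus strand), chr16:37776959-37836600 (Fstl1, plus strand), chr12:86124162-86217482 (Ltbp2, minus strand) and chr7:28090155-28122711 (Ltbp4, minus strand). Each of these 4 calls was lost when any one of the 4 infarct libraries was left out, although the differences stayed positive. Most calls across all genes tested were lost likewise. Against WT Sham, 20 genes were higher in Card9 KO MI (57.1%, against 34.8%) and 2 were lower (5.71%, against 14.3%), with a median of 0.72. These 3 comparisons share libraries and are not independent of each other. In bulk tissue, fewer cells of a type and less RNA per cell cannot be told apart.

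**Figure D1:**
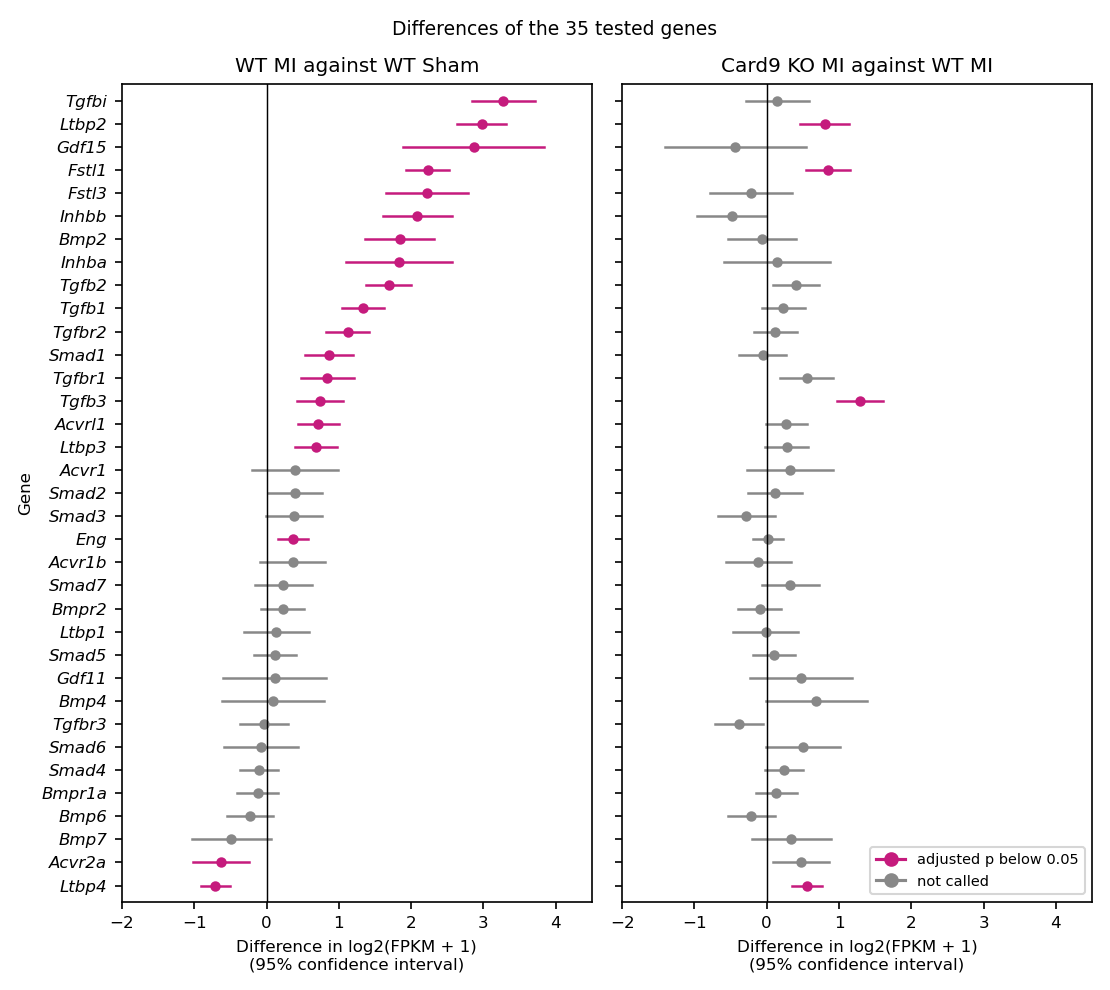
Difference in log2(FPKM + 1) of the 35 genes tested, WT MI against WT Sham (left) and Card9 KO MI against WT MI (right), ordered by the left panel; points are limma estimates from 2 libraries per group, lines their 95% confidence intervals, and colour marks an adjusted p below 0.05. The left panel runs from Tgfbi (3.28) to Ltbp4 (-0.71), and in the right panel 4 genes are coloured, with Tgfb3 (1.29) the farthest from 0.

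Promoter sequence is shown for 3 genes, Ltbp2 and Tgfbi because on the log2(FPKM + 1) scale their RNA differed most from WT Sham in both infarct groups, and Tgfb1 because it is the ligand that names the pathway. The sequences are from the RefSeq promoter table (GRCm38.p6), each has 1 exact match on its chromosome in mm9, the build of the deposited values, and bases inside the annotated gene of that build were left out. Capitals mark CAGAC, the SMAD binding element, or its reverse complement GTCTG. Coordinates are chr12:86217483-86217691 on the minus strand for Ltbp2, chr13:56710697-56710919 on the plus strand for Tgfbi and chr7:26471771-26472020 on the plus strand for Tgfb1. Each lies just upstream of its gene.
Ltbp2: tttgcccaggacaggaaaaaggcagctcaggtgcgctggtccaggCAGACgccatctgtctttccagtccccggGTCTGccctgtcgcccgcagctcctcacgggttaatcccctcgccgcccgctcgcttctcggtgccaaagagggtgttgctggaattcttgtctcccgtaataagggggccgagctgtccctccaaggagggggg
Tgfbi: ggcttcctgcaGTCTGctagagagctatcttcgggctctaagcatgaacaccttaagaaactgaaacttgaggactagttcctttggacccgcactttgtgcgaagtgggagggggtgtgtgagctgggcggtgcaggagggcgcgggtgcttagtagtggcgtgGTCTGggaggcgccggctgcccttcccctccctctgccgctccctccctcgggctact
Tgfb1: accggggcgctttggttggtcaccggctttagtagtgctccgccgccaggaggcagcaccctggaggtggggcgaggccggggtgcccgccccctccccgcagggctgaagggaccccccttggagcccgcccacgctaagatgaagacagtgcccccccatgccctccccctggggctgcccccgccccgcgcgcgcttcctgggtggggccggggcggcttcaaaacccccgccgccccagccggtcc
The Ltbp2 and Tgfbi sequences each hold 2 matches and the Tgfb1 sequence holds 0. In the 250 bases before the transcription start, CAGAC on either strand was found in 18 of 38 promoters of 31 genes of the set (47.4%), beside 42.2% of 32851 promoters in the table. TGANTCA, the AP-1 motif, was found on either strand in 1 of these 38 promoters (2.63%), that of Mstn, beside 6.75% of all promoters, and the 2 motifs can share at most 2 bases. In the 250-base window, 2 matches were also found for Tgfb2, Fstl3, Eng, Mstn and 1 promoter of Ltbp1, of which Ltbp1 was not called in any comparison and Mstn was too low to test. A match is a description of the letters and not of binding. The promoters of Tgfb3, Bmp2, Bmp7, Tgfbr3, Acvrl1, Fst, Smad2, Smad4 and Smad7 were not used here.

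All 3 TGF-beta ligands were higher after infarction, and Tgfb3 was higher again in the Card9 KO MI libraries. Tgfb1, the most abundant of the 3 per unit of transcript length, was at 29.4 and 27.6 FPKM in the WT Sham libraries, 78.6 and 68.8 in those of WT MI, and 95.6 and 78.4 in those of Card9 KO MI. Its infarct libraries all lay above the sham libraries, while those of the 2 infarct groups overlapped. The log2 difference, on the log2(FPKM + 1) scale used for every test, was 1.34 ± 0.13 (SE, n = 2 per group) for WT MI against WT Sham (limma, adjusted p = 0.000233) and 0.23 ± 0.13 for Card9 KO MI against WT MI (adjusted p = 0.348, 95% confidence interval -0.06 to 0.52). Tgfb2 was at 3.18 and 2.76 FPKM in the WT Sham libraries, 11.97 and 11.61 in those of WT MI, and 15.4 and 16.6 in those of Card9 KO MI. The 3 groups did not overlap and Tgfb2 rose by 1.69 ± 0.14 in WT MI (limma, adjusted p = 0.00013), but the infarct groups did not differ past the threshold (0.41 ± 0.14, adjusted p = 0.156).

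Tgfb3, a ligand of the same receptors, was at 8.12 and 6.64 FPKM in the WT Sham libraries, 12.3 and 13.6 in those of WT MI, and 34.5 and 31.6 in those of Card9 KO MI. Every Card9 KO MI library was above every WT MI library, and every WT MI library above every WT Sham library. Tgfb3 rose by 0.74 ± 0.14 in WT MI (limma, adjusted p = 0.00475) and was 1.29 ± 0.14 higher in Card9 KO MI than in WT MI (adjusted p = 0.0115), which is a 2.55-fold ratio of the mean FPKM. Leaving out single infarct libraries gave 1.22 to 1.36, and the adjusted p then reached up to 0.12. Tgfb3 was the single gene of the set that differed at least 2-fold on the log2(FPKM + 1) scale between the infarct groups with an adjusted p below 0.05.

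The make-up of the ligand transcripts differed accordingly. The FPKM of the 3 ligands summed to 40.7 and 37.0 in the WT Sham libraries, 102.9 and 94.0 in those of WT MI, and 145.4 and 126.6 in those of Card9 KO MI. Tgfb3 was 19.9% and 18.0% of this sum in the WT Sham libraries, 11.9% and 14.4% in those of WT MI, and 23.7% and 24.9% in those of Card9 KO MI. The Tgfb3 share was therefore lowest in WT MI, with no overlap between the groups. Tgfb1 was 73.2% to 76.4% of the sum in WT MI and 62.0% to 65.7% in Card9 KO MI.

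**Figure D2:**
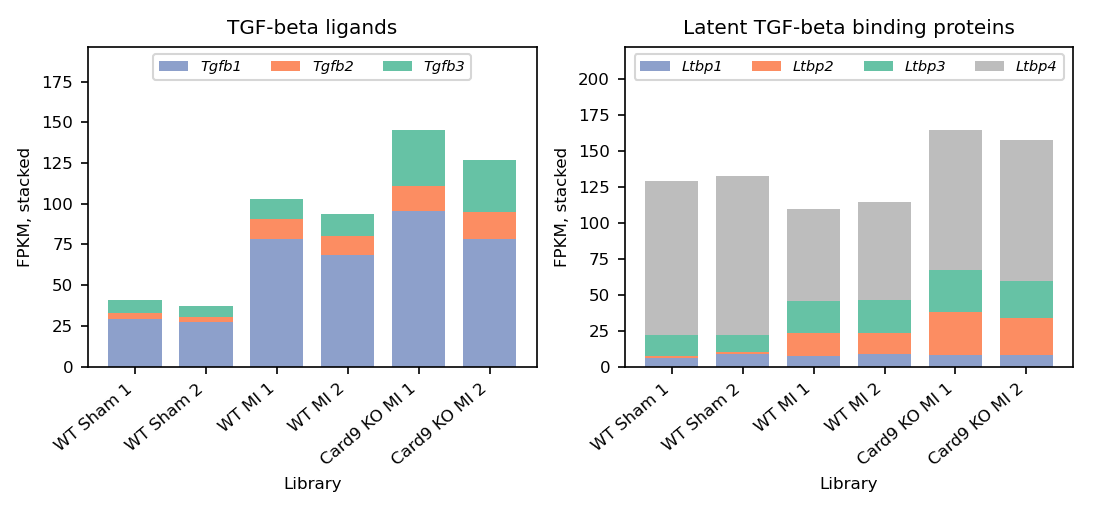
FPKM in each of the 6 libraries, stacked from 0, of the 3 TGF-beta ligand genes (left) and the 4 latent TGF-beta binding protein genes (right). Ligand sums reach 145.4 FPKM in Card9 KO MI 1, where Tgfb3 takes 23.7%, while Ltbp4 falls from 83.2% of the Ltbp sum in both WT Sham libraries to 58.5% and 59.7% in WT MI.

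The latent TGF-beta binding proteins went in different directions. Ltbp2 encodes a microfibril-associated member of this family that does not itself bind latent TGF-beta. It was at 1.23 and 0.98 FPKM in the WT Sham libraries, 16.0 and 15.1 in those of WT MI, and 30.1 and 25.8 in those of Card9 KO MI. The 3 groups did not overlap, and Ltbp2 rose by 2.98 ± 0.14 in WT MI (limma, adjusted p = 2.35e-05), a 14.1-fold ratio of the mean FPKM. Card9 KO MI was 0.80 ± 0.14 above WT MI (adjusted p = 0.0482), and this call was lost in 10 of 15 alternative settings, with differences of 0.68 to 0.91.

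Ltbp4, which also takes part in elastic fibre assembly, was the most abundant gene of the set in WT Sham. It was at 107.5 and 110.1 FPKM in the WT Sham libraries, 64.0 and 68.4 in those of WT MI, and 97.8 and 98.1 in those of Card9 KO MI. The WT MI libraries were the lowest and the Card9 KO MI libraries lay between them and WT Sham, without overlap. Ltbp4 fell by 0.71 ± 0.09 in WT MI (limma, adjusted p = 0.000739) and was 0.56 ± 0.09 higher in Card9 KO MI than in WT MI (adjusted p = 0.0352), while Card9 KO MI and WT Sham differed by -0.15 ± 0.09 (adjusted p = 0.19). This last difference passed the threshold under the 3 other scalings of the libraries, reaching -0.40.

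Ltbp3, which binds latent TGF-beta and aids its secretion, was at 14.7 and 12.4 FPKM in the WT Sham libraries, 21.9 and 22.7 in those of WT MI, and 28.9 and 25.6 in those of Card9 KO MI. It rose by 0.68 ± 0.13 in WT MI (limma, adjusted p = 0.00479), and Card9 KO MI was 0.28 ± 0.13 above WT MI (adjusted p = 0.277). Ltbp1, which anchors latent TGF-beta in the matrix, lay between 5.77 and 8.80 FPKM in all 6 libraries, its groups overlapped in every comparison, and it was not called in any. As a share of the 4 genes, Ltbp2 made up 0.741% to 0.952% in the WT Sham libraries, 13.2% to 14.6% in those of WT MI, and 16.4% to 18.3% in those of Card9 KO MI.

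Activin subunits and GDF15 were higher in both infarct groups. Inhba encodes the subunit of activin A and was at 1.87 and 0.43 FPKM in the WT Sham libraries, 6.83 and 5.69 in those of WT MI, and 7.80 and 6.21 in those of Card9 KO MI. Inhbb, the subunit of activin B, was at 1.77 and 0.92 FPKM in the WT Sham libraries, 9.21 and 8.41 in those of WT MI, and 6.0 and 6.03 in those of Card9 KO MI. Both were above WT Sham in every infarct library, and for Inhbb the Card9 KO MI libraries were below the WT MI libraries. Inhba rose by 1.84 ± 0.32 (limma, adjusted p = 0.0034) and Inhbb by 2.09 ± 0.21 (adjusted p = 0.000289) in WT MI. The infarct groups differed by 0.14 ± 0.32 for Inhba (adjusted p = 0.853) and -0.48 ± 0.21 for Inhbb (adjusted p = 0.244, 95% confidence interval -0.96 to -0.01).

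Gdf15, a divergent family member produced by stressed cells, was at 7.11 and 1.86 FPKM in the WT Sham libraries, 28.7 and 40.5 in those of WT MI, and 24.0 and 26.1 in those of Card9 KO MI. The 2 sham libraries were far apart, and all infarct libraries were above both. Gdf15 rose by 2.87 ± 0.42 in WT MI (limma, adjusted p = 0.00164). The infarct groups did not overlap, yet the difference of -0.43 ± 0.42 did not pass the test (adjusted p = 0.616). Gdf11, close to myostatin in sequence, lay between 0.41 and 1.80 FPKM and was not called in any comparison. Mstn, which encodes myostatin, an inhibitor of muscle growth, was listed in 3 of the 6 libraries at no more than 0.23 FPKM and was too low to test.

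Among the BMP ligands, Bmp2 stood apart. It was at 0.35 and 0.18 FPKM in the WT Sham libraries, within what 3 fragments on a 2 kb transcript give, and at 3.30 and 3.75 in those of WT MI and 3.62 and 3.03 in those of Card9 KO MI. Bmp2 rose by 1.84 ± 0.20 in WT MI (limma, adjusted p = 0.000448), with the infarct groups overlapping. Bmp4, a ligand that shares receptors with Bmp2, was at 4.45 and 2.18 FPKM in the WT Sham libraries, 2.64 and 4.36 in those of WT MI, and 7.06 and 5.29 in those of Card9 KO MI. Both Card9 KO MI libraries were above the other 4, but the difference from WT MI of 0.69 ± 0.30 did not pass the test (adjusted p = 0.259). Bmp6, known as a regulator of iron balance, was between 7.88 and 12.0 FPKM and highest in WT Sham. It fell by 0.44 ± 0.14 in Card9 KO MI against WT Sham (limma, adjusted p = 0.031), a call lost without WT Sham 1 and without either Card9 KO MI library, with an adjusted p of up to 0.133. Bmp7, often described as an antagonist of fibrosis, was between 0.41 and 1.30 FPKM and was not called.

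Both TGF-beta receptors were higher after infarction. Tgfbr1, the type I receptor of TGF-beta, was at 4.96 and 4.04 FPKM in the WT Sham libraries, 9.46 and 8.20 in those of WT MI, and 14.3 and 12.5 in those of Card9 KO MI. The groups did not overlap. Tgfbr1 rose by 0.84 ± 0.16 in WT MI (limma, adjusted p = 0.00498), and the further difference of 0.55 ± 0.16 in Card9 KO MI did not pass the threshold (adjusted p = 0.121). Tgfbr2, its type II partner, was at 18.4 and 14.6 FPKM in the WT Sham libraries, 35.8 and 38.0 in those of WT MI, and 40.8 and 39.4 in those of Card9 KO MI. It rose by 1.13 ± 0.13 in WT MI (limma, adjusted p = 0.000516), and the infarct groups were 0.12 ± 0.13 apart (adjusted p = 0.659).

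The endothelial receptors were also higher. Acvrl1, the type I receptor ALK1 of endothelial cells, was at 10.03 and 8.98 FPKM in the WT Sham libraries, 16.5 and 16.0 in those of WT MI, and 20.8 and 18.9 in those of Card9 KO MI. It rose by 0.72 ± 0.12 in WT MI (limma, adjusted p = 0.00329), and Card9 KO MI was 0.27 ± 0.12 above WT MI (adjusted p = 0.269). Eng, which encodes the endothelial co-receptor endoglin, was at 89.4 and 84.3 FPKM in the WT Sham libraries, 109.6 and 115.3 in those of WT MI, and 111.1 and 117.5 in those of Card9 KO MI. Its infarct libraries were all above WT Sham and overlapped between the genotypes. The rise of 0.37 ± 0.09 in WT MI (limma, adjusted p = 0.0145) was lost under all 3 other scalings, with eBayes without trend, and without WT Sham 2, WT MI 1 or WT MI 2, with an adjusted p of up to 0.217. The summed FPKM of 10 endothelial markers was 393 to 404 in the WT Sham libraries, 413 to 418 in those of WT MI, and 465 to 476 in those of Card9 KO MI, and their part in these results was not tested.

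One receptor was lower in WT MI. Acvr2a, a type II receptor for activins, myostatin and BMPs, was at 7.04 and 5.51 FPKM in the WT Sham libraries, 3.53 and 3.81 in those of WT MI, and 5.66 and 5.35 in those of Card9 KO MI. The WT MI libraries were the lowest, and the Card9 KO MI libraries overlapped WT Sham. Acvr2a fell by 0.63 ± 0.17 in WT MI (limma, adjusted p = 0.0212), a call lost without WT Sham 1, WT MI 1 or WT MI 2 (adjusted p of up to 0.106). Card9 KO MI was 0.48 ± 0.17 above WT MI (adjusted p = 0.172). Tgfbr3, which encodes betaglycan, a co-receptor that presents TGF-beta2 and inhibin, was at 7.92 and 7.84 FPKM in the WT Sham libraries, 7.88 and 7.45 in those of WT MI, and 6.09 and 5.20 in those of Card9 KO MI. Both Card9 KO MI libraries were below the other 4. Tgfbr3 fell by 0.42 ± 0.14 against WT Sham (limma, adjusted p = 0.0423), a call lost without any one library of those groups (adjusted p of up to 0.18), and differed by -0.39 ± 0.14 from WT MI (adjusted p = 0.194).

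The other receptors were not called between WT MI and WT Sham or between the infarct groups. Bmpr1a and Bmpr2, the BMP receptors of type I and type II, were between 21.4 and 26.4 FPKM and between 11.2 and 14.6 FPKM. Acvr1b, the activin type I receptor, was between 4.79 and 8.32 FPKM. Acvr1, a type I receptor for BMPs and activins, was at 9.25 and 4.94 FPKM in WT Sham and 13.6 and 10.4 in Card9 KO MI. It was called higher there (limma, log2 difference 0.72 ± 0.26, adjusted p = 0.0479), a call lost in 10 of 15 alternative settings. Acvr2b, another activin type II receptor, was at 0.39 to 0.87 FPKM and was too low to test.

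Among the 7 SMAD genes, 1 was called higher in WT MI, beside 27.7% of all genes tested. Smad1, which carries BMP signals, was at 5.22 and 5.65 FPKM in the WT Sham libraries, 9.96 and 11.5 in those of WT MI, and 10.7 and 9.90 in those of Card9 KO MI. The infarct groups overlapped and both were above WT Sham. Smad1 rose by 0.87 ± 0.14 in WT MI (limma, adjusted p = 0.00268). Smad2 and Smad3, which carry TGF-beta and activin signals, were between 2.68 and 4.45 FPKM and between 6.35 and 10.1 FPKM. In WT MI their log2 differences from WT Sham were 0.39 ± 0.16 (limma, adjusted p = 0.0956) and 0.38 ± 0.17 (adjusted p = 0.118). Smad5, which acts with Smad1, and Smad4, the partner of all receptor-regulated SMADs, lay between 8.41 and 10.5 FPKM and between 15.9 and 20.4 FPKM, with no call in any comparison.

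The inhibitory SMADs were higher in the Card9 KO MI libraries than in the WT MI libraries, but not past the threshold. Smad6, an inhibitor of BMP signaling, was at 5.72 and 3.97 FPKM in the WT Sham libraries, 4.88 and 4.09 in those of WT MI, and 5.68 and 8.02 in those of Card9 KO MI. The infarct groups did not overlap and differed by 0.50 ± 0.22 (limma, adjusted p = 0.255). Smad7, which inhibits TGF-beta receptors and is itself induced by TGF-beta, was at 5.15 and 5.15 FPKM in the WT Sham libraries, 5.29 and 7.32 in those of WT MI, and 8.13 and 8.04 in those of Card9 KO MI. Against WT Sham, Card9 KO MI was called higher for Smad7 (limma, 0.56 ± 0.17, adjusted p = 0.0279) and Smad2 (0.51 ± 0.16, adjusted p = 0.0329), and each call was lost in 8 alternative settings, including all 3 other scalings and leaving out either WT Sham library.

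The secreted binding proteins included the most abundant gene of the set after infarction. Fstl1, a follistatin-related glycoprotein that binds BMP4, was at 31.7 and 24.6 FPKM in the WT Sham libraries, 129.0 and 140.7 in those of WT MI, and 250.4 and 236.1 in those of Card9 KO MI. The 3 groups were well apart. Fstl1 rose by 2.23 ± 0.13 in WT MI (limma, adjusted p = 3.58e-05), and Card9 KO MI was 0.85 ± 0.13 above WT MI (adjusted p = 0.0337), a 1.80-fold ratio of the mean FPKM. Leaving out single infarct libraries gave 0.79 to 0.91, with an adjusted p of up to 0.251.

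Fstl3, an activin and myostatin antagonist, did not share the second step. It was at 4.70 and 2.87 FPKM in the WT Sham libraries, 25.6 and 17.1 in those of WT MI, and 19.8 and 16.1 in those of Card9 KO MI. Fstl3 rose by 2.22 ± 0.24 in WT MI (limma, adjusted p = 0.000444), and the overlapping infarct groups differed by -0.22 ± 0.24 (adjusted p = 0.672). Fst, which encodes follistatin itself, was at 0.40 and 0.42 FPKM in the WT Sham libraries, 0.74 and 0.98 in those of WT MI, and 0.79 and 0.62 in those of Card9 KO MI, too low to test.

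Tgfbi, a matrix protein induced by TGF-beta, had the largest difference of the set between WT MI and WT Sham on the log2(FPKM + 1) scale, while the ratio of mean FPKM was larger for Ltbp2 and for Bmp2, whose sham values were within what 3 fragments give. It was at 8.58 and 7.48 FPKM in the WT Sham libraries, 94.8 and 78.5 in those of WT MI, and 116.1 and 78.7 in those of Card9 KO MI. All infarct libraries were far above WT Sham, and the infarct groups overlapped. Tgfbi rose by 3.28 ± 0.19 in WT MI (limma, adjusted p = 3.44e-05), a 10.8-fold ratio of the mean FPKM, and Card9 KO MI was 0.15 ± 0.19 above WT MI (adjusted p = 0.712, 95% confidence interval -0.29 to 0.58).

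**Figure D3:**
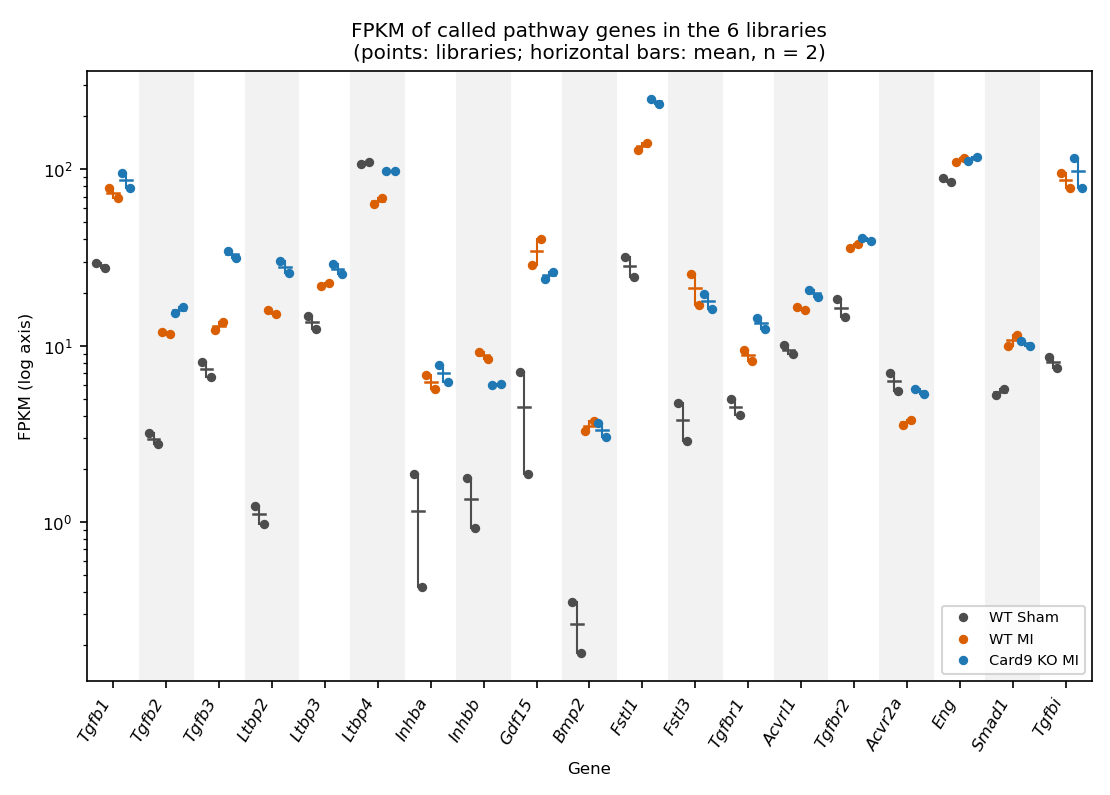
FPKM on a log axis of the 19 genes called in WT MI against WT Sham or in Card9 KO MI against WT MI, in each of the 6 libraries, ordered by role; points are libraries and horizontal bars group means of 2. In 17 of these genes both WT MI libraries lie above both WT Sham libraries, and for Tgfb3, Ltbp2, Ltbp4 and Fstl1 the Card9 KO MI libraries lie clearly above WT MI. Because the genes were chosen by calls from these same libraries, this separation is no separate result.

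Cell type markers also differed between the groups, and not all in the same direction. The summed FPKM of 11 fibroblast markers was 519 to 544 in the WT Sham libraries, 1422 to 1892 in those of WT MI, and 2630 to 2767 in those of Card9 KO MI, and 7 of the 11 were higher in Card9 KO MI than in WT MI without overlap while 1 was lower. The sum of 12 macrophage markers was 364 to 426 in the WT Sham libraries, 1471 to 1869 in those of WT MI, and 2157 to 2975 in those of Card9 KO MI, with 7 of the 12 higher in Card9 KO MI without overlap. The sum of 10 neutrophil markers, of which Ly6g and Camp were not listed and Mmp8, Ltf and Ngp were at 0 in at least 1 library, was 5.40 to 7.64 in the WT Sham libraries, 93.2 to 212 in those of WT MI, and 46.7 to 59.8 in those of Card9 KO MI. Of 4 atrial cardiomyocyte markers, Sln was not listed and Myl4 and Myl7 were at 0 in at least 1 library, which leaves Nppa. Their sum was 78.8 to 327 in WT Sham, 758 to 840 in WT MI, and 1664 to 1842 in Card9 KO MI. In WT MI against WT Sham, 1 of these markers was higher and 1 was lower without overlap. The sum is therefore not read as an amount of atrial tissue. The sum of 5 platelet markers was 10.99 to 18.3 in WT Sham, 117 to 130 in WT MI, and 88.4 to 125 in Card9 KO MI, and 4 of 6 erythroid markers (5 listed) were lower in Card9 KO MI than in WT MI without overlap. Likewise lower were 7 of 8 listed neutrophil, 5 of 10 cardiomyocyte and 3 of 5 platelet markers. Of 10 endothelial markers, 5 were higher and 1 was lower without overlap, and 1 platelet and 1 atrial marker were higher. The share of all genes without overlap is not given here, so these marker counts are not read as an excess. The part of these cell types in the levels of Tgfb3, Ltbp2, Ltbp4 and Fstl1 was not tested.

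Other genes of the pathway were counted in the same fit. They too were chosen with earlier results of these data known, so their shares in each comparison are no separate test. Of 92 such genes, 63 were expressed highly enough to be tested, of which 31 were called higher (49.2%, against 27.7% of all genes tested) and 3 lower (4.76%, against 9.39%) in WT MI relative to WT Sham, with a median log2 difference of 0.45. Among 14 target genes of TGF-beta, 12 were higher in WT MI and the other 2 were not called. Among those with the largest differences were Lox, which crosslinks collagen (4.35, limma, adjusted p = 1.98e-06), and Fn1, fibronectin (3.54, adjusted p = 7.35e-06). The 3 genes that were lower were Itgb6, an integrin subunit that activates latent TGF-beta (-1.03, limma, adjusted p = 0.0033), Hjv, the BMP co-receptor hemojuvelin (-0.54, adjusted p = 0.0162), and Ppm1a, a SMAD phosphatase (-0.37, adjusted p = 0.0211). How many genes were lower depended on the scaling of the libraries, with 7 to 9 lower under the 3 other scalings. Of 8 genes of latent TGF-beta activation tested, 7 were higher and Itgb6 was lower, and of 7 BMP target genes 4 were higher, beside 27.7% of all genes tested called higher and 9.39% lower.

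Between the infarct groups, 4 of the 63 genes were higher in Card9 KO MI (6.35%, against 0.816% of all genes tested), and 23 were higher at an unadjusted p below 0.05 (limma). None was lower (limma), against 0.587% of all genes, 4 were lower at an unadjusted p below 0.05, and the screen passed 0. The share of all genes at an unadjusted p below 0.05 is not given here, so the counts of 23 and 4 are not read as an excess. All 4 genes called were among the 14 TGF-beta target genes, whose median log2 difference was 0.50. The other 10 target genes were not called. By sign, 13 of the 14 were higher in Card9 KO MI and 1 was lower, the latter without overlap. Postn, the myofibroblast matrix protein periostin, was at 24.6 and 16.9 FPKM in the WT Sham libraries, 183.7 and 240.9 in those of WT MI, and 626.0 and 627.0 in those of Card9 KO MI. Tagln, an actin-binding protein of smooth muscle cells and myofibroblasts, was at 14.0 and 13.4, 37.6 and 44.6, and 125.2 and 105.7 FPKM in the same groups. For both genes the 3 groups did not overlap. Card9 KO MI was above WT MI by 1.57 ± 0.18 for Postn (limma, adjusted p = 0.0161) and 1.47 ± 0.13 for Tagln (adjusted p = 0.00675). It was also above WT MI by 1.19 ± 0.19 for Acta2, smooth muscle actin (limma, adjusted p = 0.0388), and 1.02 ± 0.13 for Fn1 (adjusted p = 0.0213). The part of fibroblasts and the other cell types above in these 4 differences was not tested. The calls for Postn, Acta2 and Fn1 were lost without any one infarct library, with no filter and with eBayes without trend, that for Acta2 also with the replicate block and a pseudocount of 0.1, and that for Tagln without WT MI 1 or Card9 KO MI 1 (adjusted p of up to 0.0585).

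Against WT Sham, Card9 KO MI was higher in 38 (60.3%, against 34.8% of all genes tested) and lower in 7 (11.1%, against 14.3%) of the 63 genes. All 14 TGF-beta target genes were higher, with a median log2 difference of 2.52, and the largest 3 were Postn (4.87, limma, adjusted p = 5.65e-06), Lox (4.66, adjusted p = 9.79e-07) and Fn1 (4.56, adjusted p = 1.99e-06). The largest 3 of those lower were Inha, the inhibin alpha subunit (-1.15, limma, adjusted p = 0.0137), Hjv (-1.05, adjusted p = 0.000558) and Itgb6 (-0.60, adjusted p = 0.0249).

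**Figure D4:**
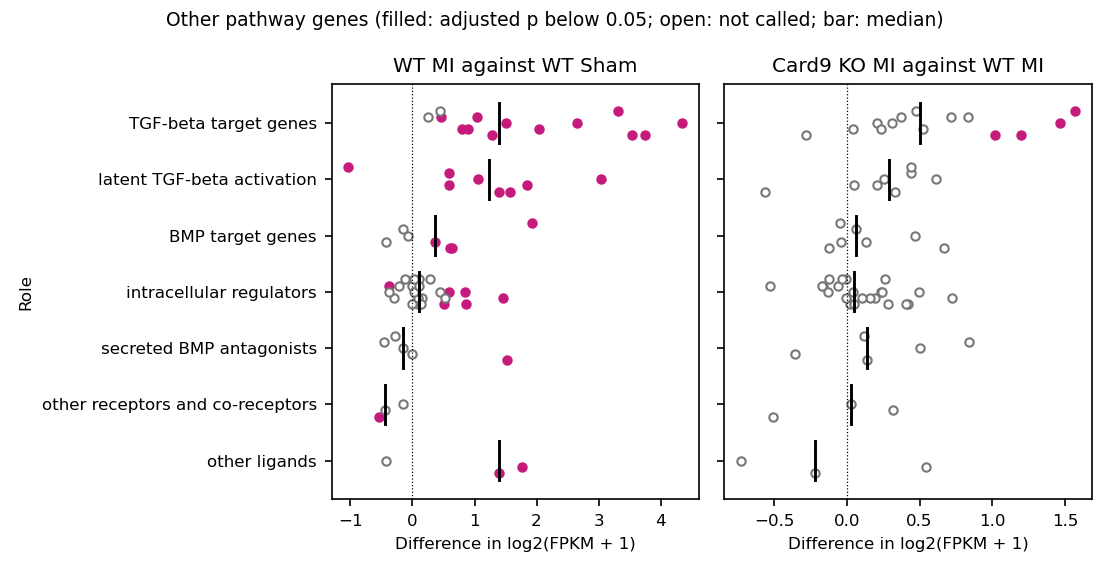
Difference in log2(FPKM + 1) of the 63 other pathway genes tested, by role, WT MI against WT Sham (left) and Card9 KO MI against WT MI (right); each point is 1 gene, filled where the adjusted p was below 0.05, and bars are medians. The 4 filled points on the right are TGF-beta target genes (Postn, Tagln, Acta2 and Fn1, 1.02 to 1.57), a group with a median of 0.50.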

How the data were processed

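RNA of heart tissue below the ligature was extracted with TRIzol, enriched for mRNA with oligo(dT) beads and sequenced on an Illumina HiSeq. Per the methods and the submitters' processing notes, reads were mapped to mm9 with BWA and Bowtie2. The deposited files hold FPKM values that the authors computed for each NCBI gene number; the annotation, the counting tool and the use of strand are not given in the sources used here, so overlapping genes can share reads. FPKM is relative to gene length and library, so a change of abundant genes shifts all others.

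Groups and replicate numbers came from the sample titles. Genes not listed in a library were set to 0, and names came from a GRCm38.p6 table (17390 of 17441 gene numbers), with positions from the mm9 GENCODE annotation. Fragments per library were estimated from the spacing of low FPKM values. As 72.9% to 75.7% of low values came out whole (within 0.15 fragment), counts were not rebuilt. Limma 3.58.1 in R 4.3.3 (lmFit, eBayes with trend) was run on log2(FPKM + 1) for genes that reached an FPKM of 1 in 2 or more libraries, with the 3 groups in one fit, Benjamini-Hochberg adjustment over 13120 genes and a call at an adjusted p below 0.05, and was tested on simulated data. For a single gene, an exact permutation test on 2 libraries per group could not reach 0.05, so none was run. The test replaced the screen of the study's methods (at least 2-fold, probability of at least 0.8), which was recomputed as an alternative. Python 3.11.15 was used for tables and motifs.

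The genes of the set and all gene lists were chosen with earlier results of these data known. Full values are given for genes called in WT MI against WT Sham or Card9 KO MI against WT MI, and for genes whose infarct libraries did not overlap with a log2 difference of at least 0.5; of the other pathway genes, the 3 largest called differences in each direction are named, except for 1 gene that is not reported here. Other genes with values in the text (Bmp6, Tgfbr3, Acvr1, Smad2, Smad3, Smad7 and Fst) were chosen after their values were seen.

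Results were recomputed with a pseudocount of 0.1 or 5, without the filter or with a mean FPKM of at least 5, with 3 other scalings (upper quartile, quantile normalization, a sum without the 100 most abundant genes), with only the 2 groups of a comparison in the fit, without the trend in eBayes, with the replicate number as a block, on genes listed in all 6 libraries, with a 2-fold threshold, by the screen, and without each library.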

Additional observations from a re-analysis of the deposited data

How the results depend on the processing

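In WT MI against WT Sham, 17 of the 19 calls held under all 15 alternative fits, all but those of Eng and Acvr2a. In Card9 KO MI against WT Sham 16 of 22 held, and in Card9 KO MI against WT MI 0 of 4. No call of a gene of the set changed direction. The median log2 difference of the set between Card9 KO MI and WT Sham, 0.72, was 0.91 with a pseudocount of 0.1 and 0.44 with 5. It was 0.50 with upper-quartile scaling, 0.36 after quantile normalization and 0.45 without WT Sham 2. Between WT MI and WT Sham, the median of 0.39 was 0.12 after quantile normalization. The 17 genes higher in WT MI became 11 with a 2-fold threshold and 10 with the screen, and the 2 lower became 4 after quantile normalization and 0 with the threshold or the screen. The 4 genes higher in Card9 KO MI than in WT MI became 0 with no filter, 2 with only the groups compared, and 1 each with eBayes without trend, the 2-fold threshold and the screen. With the replicate block the 4 became 1. The 4 other pathway genes higher in that comparison became 1 with no filter or with eBayes without trend, and 3 with the replicate block. The 20 genes higher in Card9 KO MI than in WT Sham became 13 with the 2-fold threshold and 11 with the screen, and the 2 lower became 4 after quantile normalization, 1 with no filter, 1 with only the groups compared, 1 with the replicate block, and 0 with the threshold or the screen. Leaving out 1 library gave 1 to 2 genes lower in WT MI than WT Sham, 0 higher in Card9 KO MI than in WT MI whichever infarct library was left out, and 0 to 1 lower in Card9 KO MI than in WT Sham. A lone library left in a group was assumed to vary like the others. Across all genes tested, most calls between the infarct groups were also lost when 1 infarct library was left out, so that loss was not particular to this set. The cause of these losses was not tested. Of all 13120 genes, 107 were higher and 77 lower in Card9 KO MI than in WT MI, and 7 and 5 without a filter, 40 and 18 with eBayes without trend, and 45 and 26 with the replicate block. Whether replicate numbers pair the libraries is not known. The difference between replicates 1 and 2 correlated across genes at 0.0024, -0.0083 and 0.020 for the 3 pairs of groups. Such low correlations show no common shift by replicate number, but cannot exclude that libraries were paired. At 2 libraries a group and an estimated 3024000 to 4297000 fragments, values below 0.5 FPKM rest on few fragments, so that low levels of Bmp2 and Inhba in WT Sham, Fst, Acvr2b, Mstn, Gdf11 and Bmp7 are imprecise.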
